A study of Mus musculus with 14 samples.

Results

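The messenger RNAs of 10 genes for DNA methylation, Polycomb repressive complex 2 (PRC2) and histone deacetylation were followed through mouse lung development. They were Dnmt1, Dnmt3a, Dnmt3b, Uhrf1, Tet1, Ezh2, Suz12, Eed, Hdac1 and Hdac2, chosen by gene symbol among the 18193 genes that the array annotation names. The samples were whole lungs of ICR mice, labelled female, at embryonic days 12, 14, 16 and 18 (E12 to E18, with the day of the plug as day 0), postnatal days 2 and 10 (P2 and P10) and postnatal day 30 (Adult). In the methods, the ICR females are those mated for timed pregnancies, and no sexing of embryos or pups is described. The labels name no allele, agent or treatment. Each of the 7 time points had 2 arrays, and the RNA came from pooled lungs. How many lungs a pool held, and whether both arrays of a time point came from separate pools, is not stated, so the p-values measure the spread between these arrays, which may be technical.

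DNA methylation is copied onto the new strand after replication by the maintenance methyltransferase DNMT1, which UHRF1 brings to hemimethylated sites, whereas DNMT3A and DNMT3B methylate unmethylated DNA. TET1 oxidises methylated cytosine, a step towards its removal. PRC2 methylates histone H3 at lysine 27 through EZH2, its catalytic subunit, which is active only together with SUZ12 and EED. HDAC1 and HDAC2 are deacetylases that sit in the same corepressor complexes and remove the acetyl groups of open chromatin. In the mouse lung, loss of Ezh2 or of both Hdac1 and Hdac2 from the early epithelium is known to disturb its development.

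E2F factors, which switch on genes for DNA replication, are known to act on some of these genes. The promoter stretches below are shown because they hold an E2F site within the window that runs from 250 bases before to 50 bases after a transcription start. They were taken from RefSeq on mouse build GRCm38.p6, each is 30 bases long and read 5′ to 3′ on the gene's strand, and the site is in capitals. The letters searched, on both strands, were TTTCCCGC, TTTGGCGC, TTTGCCGC and TTTCGCGC.
Dnmt1, chr9:20952824-20952853, minus strand, site on the opposite strand 219 bases before the start: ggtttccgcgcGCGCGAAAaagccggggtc
Dnmt1, chr9:20952574-20952603, minus strand, site 33 bases after the same start: gcgcggggcagcgTTTGGCGCgggctgtgc
Uhrf1, chr17:56304117-56304146, plus strand, site 185 bases before the start: cccgagtcgggTTTCGCGCgcccaggcgtc
Ezh2, chr6:47595009-47595038, minus strand, site 3 bases after the start: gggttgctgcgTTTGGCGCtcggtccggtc
Suz12, chr11:79992876-79992905, plus strand, site 219 bases before the start: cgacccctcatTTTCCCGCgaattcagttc

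Promoter windows were at hand for 9 of the 10 genes, 14 windows in all, and none for Hdac1. An E2F site stood in 4 of the 14 windows, 1 each of Dnmt1, Uhrf1, Ezh2 and Suz12, and in 2.26% of all 32851 windows. The cell cycle homology region, spelled TTTGAA or TTCGAA on either strand and without overlap with the E2F sites found, stood in windows of Dnmt1, Dnmt3b, Suz12 and Eed and in 19.2% of all windows. A match is a description of the letters in these windows.

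The arrays gave log2 values, so a difference of 1 is a doubling of signal, and values of different genes are not compared because each probe set binds with its own strength. Values ran from 2.53 to 14.99 over the 45037 probe sets, and array medians lay between 6.55 and 6.63. Replicate arrays correlated at 0.995 to 0.998, and each of the 14 arrays was nearest to its own replicate. A gene with several probe sets is given by the brightest of them on average, and the others serve as a check. Of the lung markers examined, all 6 of epithelium, 5 of mesenchyme and 5 of endothelium reached a time-point mean above 7. No thymus marker of 6 did. Their median was 6.09 on the first E16 array and 5.76 on the second. Rag1, with an E16 mean of 4.52, had an SD of 1.82 between these arrays, and Ptcra 0.50. The median of 6 heart muscle markers was 11.15 on the first E16 array and 8.65 on the second, against 5.83 to 7.09 on the E12 and E14 arrays, and it lay between 9.30 and 10.89 on all later arrays. Its part in the values of the 10 genes was not tested.

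All 10 genes were lower in Adult lungs than at E12, by 0.76 to 4.91 log2 units. Among all genes, 30.2% were lower at the same threshold, an adjusted p under 0.05 in limma, and 42.5% of the 11663 genes whose highest time-point mean (Max) was above 7, a level that all 10 genes reached. The median difference was -1.73 for the 10 genes, against 0.08 for all genes and -0.04 for the genes with Max above 7. The highest Adult array lay below the lowest E12 array for each of the 10 genes. How many of all genes were separated in this way was not counted. Markers of cell types differed too. The median of 5 endothelial markers lay at 11.65 and 11.74 on the Adult arrays, against 8.90 and 8.88 on those of E12, and that of 5 leukocyte markers at 9.07 and 9.23, against 6.87 and 7.07 at E12. All of these endothelial and leukocyte markers were higher in Adult lungs. Of 6 epithelial markers 4 were higher and 1 lower (median difference 1.27), and of 5 mesenchymal markers 2 were higher and 3 lower (-0.66). The median of the 6 heart muscle markers lay at 10.89 and 10.73 on the Adult arrays, against 5.83 and 6.04 on those of E12, and 4 of the 6 were higher. Of 4 red blood cell markers 2 were lower, the embryonic globins Hbb-y and Hba-x, and 1 was higher. The part of these shifts in the values of the 10 genes was not tested. In whole lung, fewer cells of a type and less RNA per cell cannot be told apart.

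**Figure D1:**
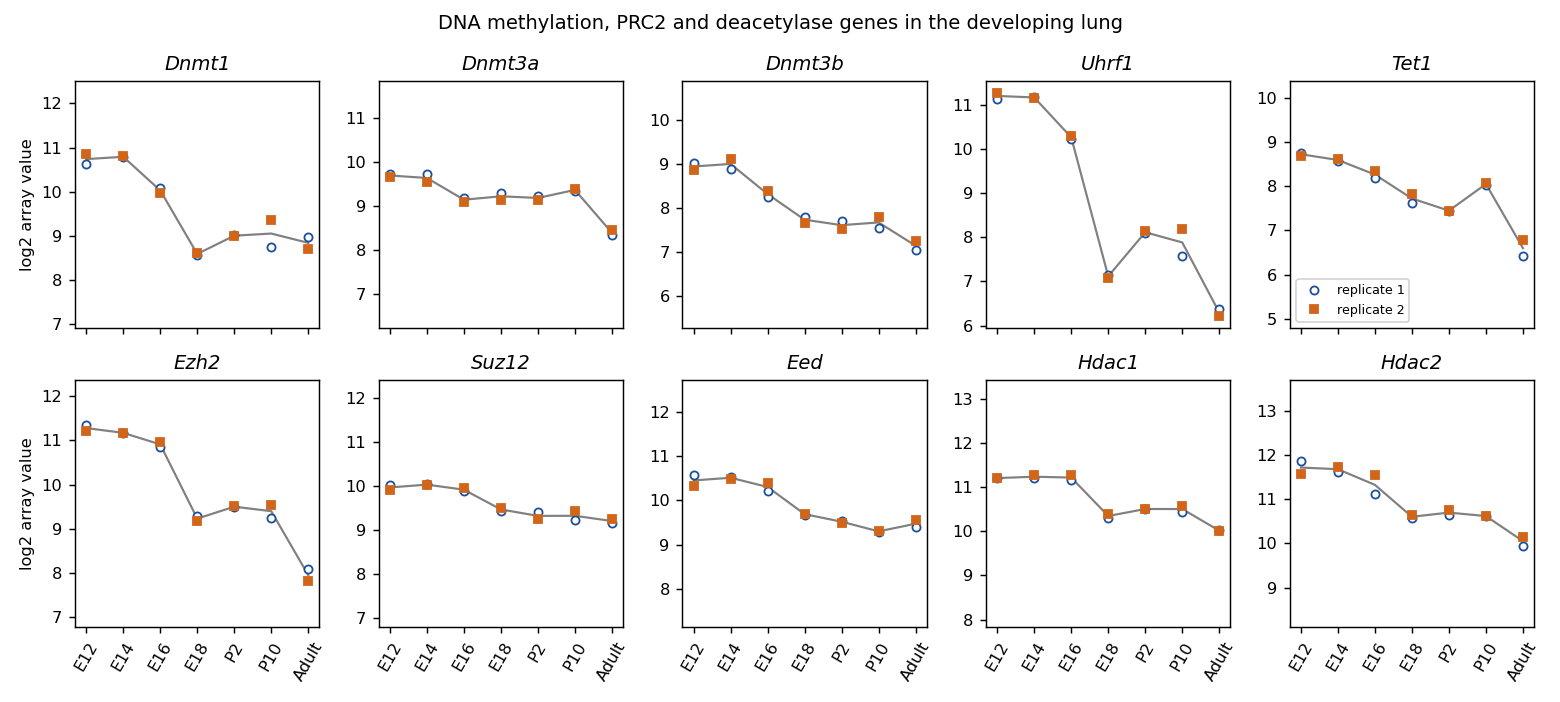
Log2 array value (vertical axis, the same span of units in each panel) of the 10 genes at the 7 time points from E12 to Adult (horizontal axis). Circles are the first and squares the second array of a time point, and the line joins the means. Uhrf1 and Ezh2 cover the widest spans, and the steepest part of their lines lies between E16 and E18.

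Uhrf1, of the maintenance pair, had the largest difference of the 10. Uhrf1 (probe set 1415810_at) read 11.13 and 11.28 at E12, 11.19 and 11.16 at E14, 10.24 and 10.30 at E16 and 7.16 and 7.08 at E18. After birth it read 8.09 and 8.14 at P2, 7.58 and 8.19 at P10 and 6.38 and 6.21 in Adult lungs. All 6 arrays up to E16 lay above all 8 later ones, and the Adult arrays lay below all others. The Adult mean was 30.1-fold lower than that of E12, a log2 difference of -4.91 (SE 0.15, adjusted p = 8.2e-12). By size of fall it had rank 31 among the 18193 genes, and the second Uhrf1 probe set gave a difference of -4.77.

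Dnmt1 (probe set 1435122_x_at) read 10.62 and 10.86 at E12, 10.77 and 10.81 at E14, 10.08 and 9.97 at E16 and 8.56 and 8.61 at E18. Its later values were 9.01 and 8.99 at P2, 8.75 and 9.35 at P10 and 8.97 and 8.70 in Adult lungs. The lowest mean was that of E18, and all arrays from E18 onward lay below those up to E16. The E18 arrays lay below all later ones, and the P2, P10 and Adult arrays overlapped. Adult and E12 differed by -1.90 (SE 0.16, adjusted p = 1.5e-07). Of that difference, 40.1% lay between E14 and E16 and 75.8% between E16 and E18, since the P2 mean lay above that of E18. The probe set used here is of a kind that may also bind related transcripts, and the other 2 Dnmt1 probe sets gave -2.12 and -1.80. The low point at E18 differed with the probe set. With 1422946_a_at the lowest mean was that of Adult lungs (8.66, against 8.67 at E18), and the E18 and Adult arrays overlapped. With 1447877_x_at it was that of E18.

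The de novo methyltransferases followed different courses. Dnmt3a (probe set 1423063_at) read 9.74 and 9.66 at E12, 9.73 and 9.55 at E14, 9.20 and 9.10 at E16 and 9.30 and 9.14 at E18. It stayed at 9.23 and 9.15 at P2 and 9.35 and 9.38 at P10, and read 8.34 and 8.45 in Adult lungs. The Adult arrays stood apart below all others, the arrays of E16, E18 and P2 overlapped, and both P10 arrays lay just above them. Adult and E12 differed by -1.30 (SE 0.10, adjusted p = 4.9e-08), with 74.8% of the difference between P10 and Adult. The 5 Dnmt3a probe sets were all lower in Adult lungs than at E12, by 1.24 to 2.57, but not all took the same course. Between Adult and P10, 4 of them fell, by 0.93 to 1.06, and the dimmest (1423064_at) differed by -0.27 (adjusted p = 0.16).

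Dnmt3b (probe set 1449052_a_at) read 9.03 and 8.85 at E12, 8.88 and 9.12 at E14, 8.25 and 8.38 at E16 and 7.80 and 7.67 at E18. It then read 7.70 and 7.52 at P2, 7.54 and 7.80 at P10 and 7.04 and 7.25 in Adult lungs. The arrays fell into 4 steps that did not overlap, E12 with E14, then E16, then E18 to P10, then Adult. The Adult mean differed from that of E12 by -1.80 (SE 0.13, adjusted p = 2.5e-08), and the other probe set gave -1.52.

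Tet1 (probe set 1455425_at), the demethylation gene of the 10, read 8.76 and 8.69 at E12, 8.58 and 8.62 at E14, 8.20 and 8.34 at E16 and 7.63 and 7.82 at E18. Its values were 7.45 on both arrays at P2, 8.03 and 8.07 at P10 and 6.42 and 6.78 in Adult lungs. The P10 arrays lay above those of E18 and P2, and the Adult arrays below all others. Adult and E12 differed by -2.13 (SE 0.12, adjusted p = 1.8e-09), with 68.3% of the difference between P10 and Adult. Of the other 3 Tet1 probe sets 2 were lower in Adult lungs, and the dimmest, with a mean of 5.28, differed by -0.19 (adjusted p = 0.16).

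Among the PRC2 genes, the catalytic subunit had the largest difference. Ezh2 (probe set 1416544_at) read 11.34 and 11.22 at E12, 11.18 and 11.17 at E14, 10.86 and 10.97 at E16 and 9.29 and 9.17 at E18. After birth the values were 9.48 and 9.52 at P2, 9.25 and 9.54 at P10 and 8.09 and 7.80 in Adult lungs. The arrays from E18 to P10 lay within 9.17 and 9.54, below all earlier arrays and above both Adult arrays. The Adult mean was 10.1-fold lower than that of E12, a difference of -3.34 (SE 0.12, adjusted p = 2.7e-11), rank 189 by size of fall. Most of it came in 2 steps, 50.5% between E16 and E18 and 43.5% between P10 and Adult.

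The partners that EZH2 needs for activity had smaller differences. Suz12 (probe set 1420021_s_at) read 10.02 and 9.90 at E12, 10.04 and 10.01 at E14, 9.88 and 9.94 at E16 and 9.42 and 9.50 at E18. It read 9.39 and 9.24 at P2, 9.22 and 9.42 at P10 and 9.16 and 9.24 in Adult lungs. All arrays up to E16 lay above all later ones, the E18 arrays lay just above those after birth, and the P2, P10 and Adult arrays overlapped. Adult and E12 differed by -0.76 (SE 0.10, adjusted p = 1.1e-05).

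Eed (probe set 1448653_at), the subunit that binds methylated lysine 27, read 10.58 and 10.33 at E12, 10.53 and 10.49 at E14, 10.21 and 10.40 at E16 and 9.68 and 9.70 at E18. It was at 9.54 and 9.49 at P2, 9.29 and 9.31 at P10 and 9.40 and 9.55 in Adult lungs. Its lowest mean was that of P10, and the Adult arrays overlapped those of P2. Adult and E12 differed by -0.98 (SE 0.10, adjusted p = 1.6e-06).

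Other probe sets of both genes bear on these values. Of the 6 Suz12 probe sets, 5 were lower in Adult lungs than at E12 and 1 (1420020_at), with a mean of 7.35, was higher by 0.94 (SE 0.16, adjusted p = 0.00013). The second Eed probe set, with a mean of 4.51, differed by -0.22 (adjusted p = 0.16). In all, 26 of the 29 probe sets of the 10 genes were lower in Adult lungs, 1 was higher and 2 were not called. Over all genes, each by its brightest probe set, 30.2% were lower. Probe sets of the same gene are not independent of one another.

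With the brightest probe set of each deacetylase gene, all arrays from E18 onward lay below all earlier ones. Hdac1 (probe set 1448246_at) read 11.21 on both arrays at E12, 11.21 and 11.27 at E14, 11.17 and 11.27 at E16 and 10.31 and 10.39 at E18. It stood at 10.51 and 10.50 at P2, 10.43 and 10.58 at P10 and 10.03 and 10.00 in Adult lungs. The arrays up to E16 lay between 11.17 and 11.27, and 73.1% of the difference between Adult and E12 lay between E16 and E18. That difference was -1.19 (SE 0.09, adjusted p = 3.7e-08).

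Hdac2 (probe set 1445684_s_at) read 11.87 and 11.57 at E12, 11.63 and 11.74 at E14, 11.12 and 11.54 at E16 and 10.57 and 10.64 at E18. It then read 10.65 and 10.75 at P2, 10.62 on both arrays at P10 and 9.95 and 10.16 in Adult lungs. The E16 arrays differed more from each other than the arrays of any other time point of Hdac2, and the Adult arrays lay below the rest. Adult and E12 differed by -1.67 (SE 0.14, adjusted p = 1.3e-07), and the other 2 probe sets gave -1.96 and -1.39. The dimmest (1439704_at) took another course, at 6.53 and 6.92 at E16 and 7.14 and 6.64 at P2. It was 0.54 higher at P2 than at E18 (adjusted p = 0.046).

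Across all 7 time points, 9 of the 10 genes met the thresholds for a dynamic gene that the study's methods set, an adjusted p under 0.05 across time points, Max above 7 and a Range (highest minus lowest mean) above 1.2. Of all genes, 26.7% met them, and 41.7% of those with Max above 7. Suz12 did not with its brightest probe set, which had a Range of 0.83 and an adjusted p of 5.7e-06 in limma's F test. Its probe set 1452364_at, with a mean of 8.83, met them (Range 1.32, adjusted p = 6.4e-08 in the same test). Eed and Hdac1 stood just inside, with Ranges of 1.22 each, so the count of 9 rests partly on where that line is drawn. Quantile normalization, which moved it furthest, left 6.

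Between neighbouring time points, the 10 genes did not change evenly. From E12 to E14, limma called 0 of the 10 in either direction, beside 4.33% of all genes and 6.10% of those with Max above 7. At an unadjusted p under 0.05 the count was also 0, and so it was with ordinary ANOVA. The E14 and E12 means differed by at most 0.13 in size, the value of Tet1 (adjusted p = 0.70).

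Between E16 and E14, 4 of the 10 genes were called. Uhrf1 fell by 0.90 (SE 0.15, adjusted p = 0.0012), Dnmt1 by 0.76 (SE 0.16, adjusted p = 0.0051), Dnmt3b by 0.68 (SE 0.13, adjusted p = 0.0025) and Dnmt3a by 0.49 (SE 0.10, adjusted p = 0.0038). These genes were called lower beside 10.6% of all genes and 15.3% of those with Max above 7. Dnmt3a was not called without the first E14 array (-0.40, adjusted p = 0.059). Tet1 differed by -0.33 (adjusted p = 0.069) and was called with its second probe set (adjusted p = 0.042), with the filter on Max (0.040) and with either Adult array left out (0.033). The 3 PRC2 genes differed by -0.11 to -0.26 and Hdac1 by -0.02. Hdac2 differed by -0.36 (adjusted p = 0.10), and was called without the second E16 array (-0.57, adjusted p = 0.018) and with the mean of its probe sets (-0.47, adjusted p = 0.027).

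The step between E18 and E16 held the most calls. Of the 10 genes 9 were lower at E18, beside 21.6% of all genes and 30.7% of those with Max above 7. The median difference of the 10 was -0.67, against 0.03 for all genes. Uhrf1 fell by 3.15 (SE 0.15, adjusted p = 3.7e-09), which is 8.88-fold and had rank 32 of all genes. Ezh2 fell by 1.68 (SE 0.12, adjusted p = 1.1e-07) and Dnmt1 by 1.44 (SE 0.16, adjusted p = 7.4e-06). With their brightest probe sets, the other 6 that were called, Hdac1, Hdac2, Eed, Dnmt3b, Tet1 and Suz12, fell by 0.45 to 0.87. Of the 19 other probe sets of the 10 genes, 13 were called lower, 1 higher and 5 not called. The Suz12 probe set 1420020_at was 0.43 higher at E18 (adjusted p = 0.045). The second Eed probe set (-0.25), the dimmest of Hdac2 (1439704_at, -0.38) and the dimmest of Tet1 (-0.10) were not called. Dnmt3a differed by 0.08 (SE 0.10, adjusted p = 0.59) with its brightest probe set. Of its other 4 probe sets, 2 were called lower at E18, 1423064_at (2.00-fold, adjusted p = 3.3e-05) and 1423066_at (-0.44 in log2, adjusted p = 0.015).

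Between E18 and P2, and between P2 and P10, few of the 10 genes were called. At P2, Uhrf1 was 0.998 higher than at E18 (SE 0.15, adjusted p = 0.00058), a doubling, and it was the 1 gene of the 10 called higher, beside 8.58% of all genes and 11.5% of those with Max above 7. Dnmt1 was 0.41 higher (adjusted p = 0.10). It was called with its second probe set (0.31, adjusted p = 0.030) and with either P10 array left out. No gene of the 10 was called lower by limma, while 1 had an unadjusted p under 0.05, and ordinary ANOVA also called 0. The E18 arrays enter both this comparison and the 1 before it, so the fall and the rise of Uhrf1 around E18 are not independent.

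At P10, Tet1 was 0.61 higher than at P2 (SE 0.12, adjusted p = 0.0069), the only call among the 10, beside 4.82% of all genes called higher and 6.76% of those with Max above 7. Limma called 0 of the 10 lower, as did ordinary ANOVA and an unadjusted p under 0.05. It rested on few arrays. Without the first P2, the second P2 or the second P10 array, its adjusted p was 0.061, 0.053 and 0.053. With the mean of the 4 Tet1 probe sets the difference was 0.32 (adjusted p = 0.081). Uhrf1 differed by -0.23 (adjusted p = 0.46), and by -0.54 (adjusted p = 0.025) without the second P10 array, the higher of the pair.

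Between Adult and P10, 7 of the 10 genes were lower in Adult lungs, beside 14.9% of all genes and 21.4% of those with Max above 7. Uhrf1 fell by 1.59 (SE 0.15, adjusted p = 4.1e-06), and Tet1 and Ezh2 by 1.45 each (SE 0.12). Dnmt3a fell by 0.97 (SE 0.10, adjusted p = 7.1e-06), its largest step. Hdac2 fell by 0.57, Dnmt3b by 0.53 and Hdac1 by 0.49. Without the first Adult array Hdac2 and Dnmt3b were not called (adjusted p = 0.074 and 0.072). Dnmt3b also lost its call without the second P10 array (-0.40, adjusted p = 0.080) and with its second probe set (-0.28, adjusted p = 0.053). Dnmt1 differed by -0.21 (adjusted p = 0.39), Suz12 by -0.12 and Eed by 0.17, and Dnmt1 was called, at -0.51, without the first P10 array.

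**Figure D2:**
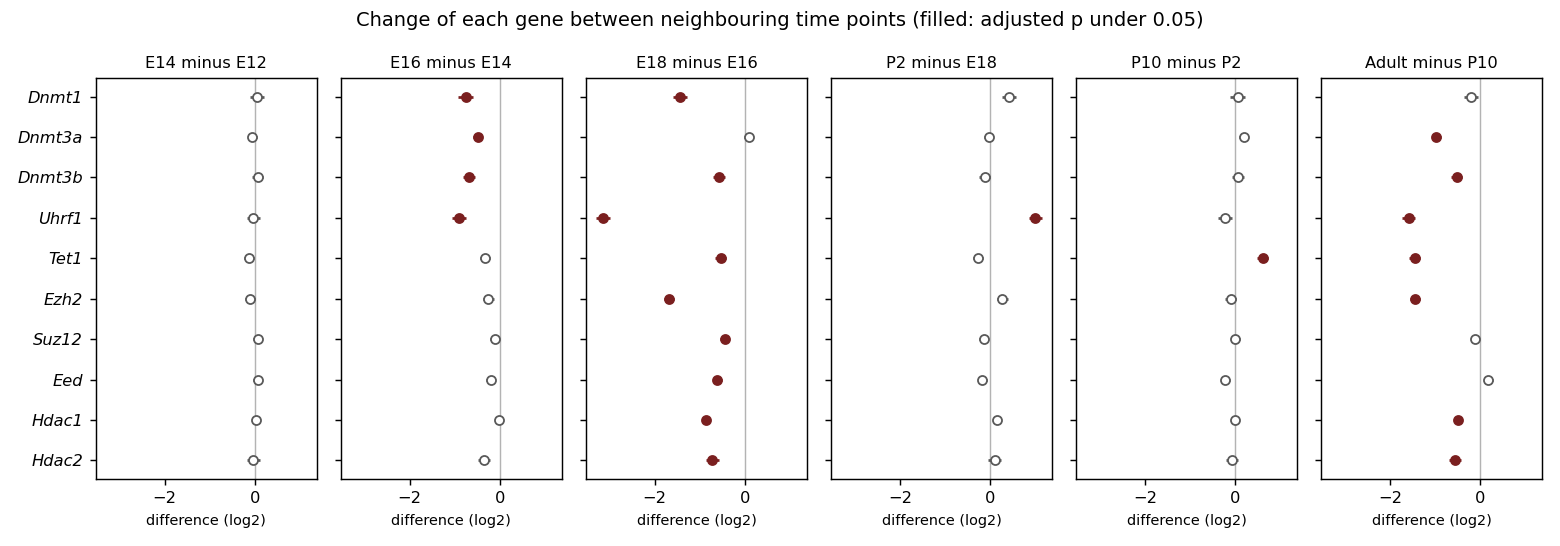
Log2 difference of each of the 10 genes (rows) at each of the 6 steps between neighbouring time points, later minus earlier (panels), with bars of 1 SE. Filled points had an adjusted p under 0.05 in limma. The E18 minus E16 panel has 9 filled points left of 0, and the E14 minus E12 panel has none.

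Changes of paralogs were compared within each array, as the log2 value of 1 gene minus that of the other, so that a change of this ratio shows unequal change of the pair. All 5 ratios tested passed an adjusted p of 0.05 between Adult and E12, but those of Hdac1 to Hdac2 and Dnmt3b to Dnmt3a did not under every setting. EZH1 can replace EZH2 as the PRC2 enzyme and is known for its presence in cells that no longer divide. The ratio of Ezh2 to Ezh1 read -1.45 and -1.84 in Adult lungs, against 3.60 and 3.35 at E12, a change of -5.12 (SE 0.13, adjusted p = 2.2e-12). Ezh1 itself was 1.78 higher in Adult lungs (SE 0.09, adjusted p = 8.3e-10), with 1.08 of it between E16 and E18. The signs of these ratios have no meaning of their own, because each probe set has its own strength.

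UHRF2, the relative of UHRF1, does not stand in for it in maintaining methylation. Its gene fell by 1.10 (SE 0.11, adjusted p = 9.7e-07), and the ratio of Uhrf1 to Uhrf2 changed by -3.81 (SE 0.17, adjusted p = 3e-10). The ratio of Tet1 to Tet3 changed by -2.11 (SE 0.17, adjusted p = 8.4e-08), with Tet3 at a dim signal of 5.33 to 5.86 throughout. Hdac2 fell further than Hdac1, with a ratio of Hdac1 to Hdac2 that changed by 0.48 (SE 0.13, adjusted p = 0.0062). That call was lost without the first E12 array (0.33, adjusted p = 0.083) and without the first Adult array (0.35, adjusted p = 0.072).

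The ratio of Dnmt3b to Dnmt3a was not settled. It changed by -0.50 (SE 0.13, adjusted p = 0.0056) with the brightest probe sets and by -0.28 (adjusted p = 0.092) with the second brightest. With the mean of all probe sets of each gene the sign was turned, at 0.26 (adjusted p = 0.050). Which of the 2 genes fell further therefore differs with the probe sets.

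**Figure D3:**
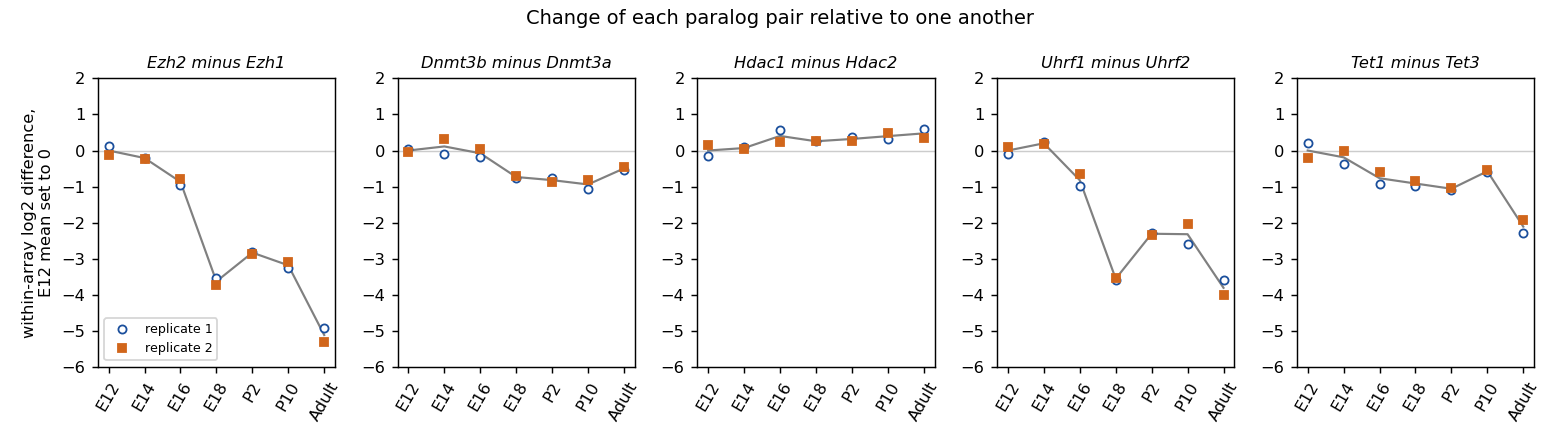
Within-array log2 difference of 5 paralog pairs (vertical axis, with the E12 mean of each pair set to 0) at the 7 time points (horizontal axis). Circles are the first and squares the second array of a time point, and the line joins the means. Ezh2 relative to Ezh1 reaches -5.12 in Adult lungs, and Hdac1 relative to Hdac2 stays within 1 unit of 0.

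The wider machinery did not fall as a whole. Lists of related genes were described by their counts of calls between Adult and E12, without a test of the list. Over all genes, 30.2% were lower and 35.0% higher in Adult lungs, and over those with Max above 7, 42.5% and 39.5%. Of 8 further PRC2 partners 4 were lower and 2 higher in Adult lungs, with a median difference of -0.20. The histone-binding subunits Rbbp4 and Rbbp7 fell by 1.09 and 1.26, Mtf2, which helps bring PRC2 to CpG islands, by 1.89 and Jarid2 by 0.51. Phf1, a relative of Mtf2, was 1.63 higher, alongside Ezh1, while Phf19 and Aebp2 were not called (0.11 and 0.10).

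Polycomb repressive complex 1 (PRC1) binds the lysine 27 mark and ubiquitinates histone H2A. Of its 20 measured genes 10 were lower and 5 higher in Adult lungs, with a median of -0.30, and the share that was lower was near the 42.5% of genes with Max above 7. Among the chromobox proteins, which read the mark, Cbx2 fell by 2.07 and Cbx7 was 2.08 higher, and Cbx8 was not called (-0.07). Of the catalytic subunits Rnf2 fell by 1.85 and Ring1 was not called (0.14). Phc1 fell by 1.44 and Pcgf2 by 0.66, and Bmi1 differed by -0.13 (adjusted p = 0.27). The demethylases of lysine 27, Kdm6a and Kdm6b, differed by 0.28 and 0.20 and were not called. Of the 12 genes that oppose Polycomb 5 were lower and 2 higher, where Ash2l fell by 1.63 and Kmt2d was 0.74 higher.

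Of 18 further genes for writing, reading and erasing DNA methylation 9 were lower and 5 higher, with a median of -0.16, beside 42.5% lower and 39.5% higher among genes with Max above 7. Hells, a remodeler that helps methylate silent DNA, fell by 4.75 (SE 0.13, adjusted p = 2.5e-12), close to the fall of Uhrf1. Tet2 fell by 0.29, and Tet3 and Dnmt3l were not called, both at dim signal. Mbd2, which binds methylated CpG, was 1.27 higher, and Mbd3, which carries the same domain but in mammals has little preference for methylated DNA, fell by 1.36. Zbtb4, which also binds methylated DNA, was 3.39 higher.

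Of 15 further deacetylases 6 were higher and 3 lower in Adult lungs, with a median of 0.17. The share that was higher was near the 39.5% of genes with Max above 7. Hdac3, the deacetylase of the NCoR complexes, fell by 1.44. The class IIa genes Hdac5, Hdac7 and Hdac9 were 0.87, 1.19 and 0.48 higher, and Hdac4 and Hdac11 were not called (0.11 and 0.17). Sirt7, a sirtuin, was 1.23 higher. Of 18 genes for the complexes that hold HDAC1 and HDAC2, 12 were lower and 0 higher by limma, and 0 were higher at an unadjusted p under 0.05, with a median of -0.60. Sap30 of the Sin3 complex fell most, by 1.99. Kdm1a fell by 1.199, Mta2 by 0.92, Chd4 by 0.65, Rcor1 by 0.54 and Sin3a by 0.44.

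**Figure D4:**
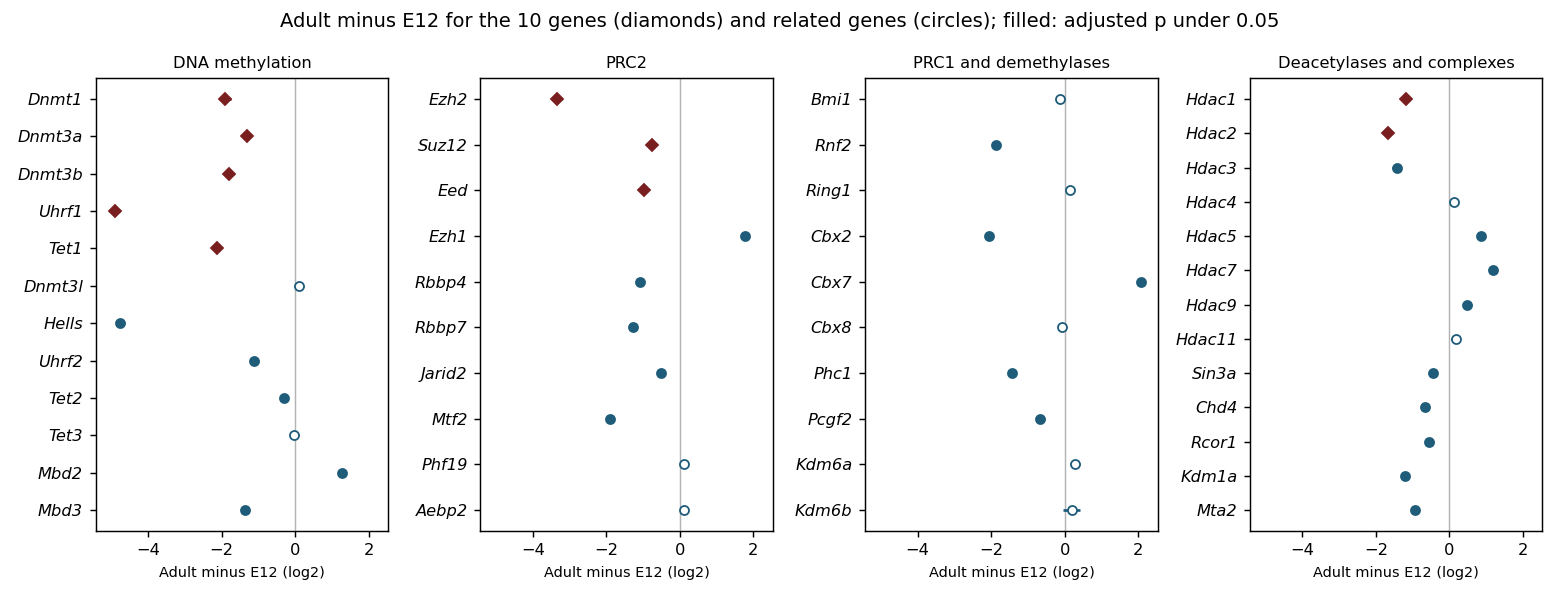
Adult minus E12 log2 difference (horizontal axis, bars of 1 SE) of the 10 genes (diamonds) and of related genes named by role (circles), in 4 panels by function. Filled symbols had an adjusted p under 0.05 in limma. All 10 diamonds lie left of 0, while circles lie on both sides, with Ezh1, Cbx7, Mbd2, Hdac5, Hdac7 and Hdac9 filled on the right.

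Genes of dividing cells fell between E16 and E18, as most of the 10 genes did, and a larger share of them was called higher at P2. All 18 measured genes of a list for DNA replication and mitosis were lower in Adult lungs than at E12, with a median difference of -3.52, and all 18 were lower at E18 than at E16, with a median of -2.29. At P2, 13 of the 18 were higher than at E18 (median 0.56), beside 1 of the 10 genes (median 0.03). At an unadjusted p under 0.05, 3 of the 10 were higher and 1 lower. The 5 of the list not called included Mki67 (0.33, adjusted p = 0.080 in limma) and E2f1 (-0.21). Counts of calls depend on the size of the change, so they do not show different courses by themselves. Of all genes with Max above 7, 42.5% were lower in Adult lungs than at E12. At E18, 30.7% of them were lower than at E16, and at P2 11.5% were higher than at E18. The median of the list lay between 7.23 and 7.48 on the Adult arrays, between 8.62 and 9.55 on those of E18, P2 and P10 and between 11.24 and 11.73 up to E16. Mki67, which marks cycling cells, fell by 4.34 between Adult and E12. Bub1 fell most of the list, by 5.52, and Top2a fell by 5.06, Mcm2 by 3.23, Pcna by 1.85 and E2f1 by 0.95. The part of this change in cell division in the values of the 10 genes was not tested. Set against E12, the 10 genes had a median difference of -1.06 at E18, -1.15 at P2 and -1.13 at P10. The dividing cell list had -2.81 at E18, -2.08 at P2 and -2.38 at P10.

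The nearest genes by course were named for each of the 10 genes, as the 3 highest Pearson correlations over the 7 time-point means among 4755 candidate genes (4756 for Suz12). These correlations describe likeness of course only, over 7 points that share the same arrays. Nearest to Uhrf1 were Ppip5k2, Pole and Mcm2 (0.998 to 0.999), the last 2 being replication genes. Ezh2 was nearest to Kif20a, Birc5 and Cdca5 (0.998 to 0.999), which act in mitosis, and Hdac1 to Mastl, Gas2l3 and Cenpi (0.999). Dnmt1 lay nearest to Pdap1, Srm and Gins3, Eed to Gins4, Trim37 and Terf1, Suz12 to Fancm, Rpl7l1 and Bri3bp, Dnmt3b to Trim28, Dcakd and Mrps2 and Hdac2 to Efna2, Prpf19 and Lipt2, each between 0.995 and 0.998. Dnmt3a and Tet1 had looser neighbours, Cul7, Cracd and Fscn1 (0.970 to 0.977) and Tmeff1, Vps37d and Pth1r (0.983 to 0.991).

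Genes that are described as targets of these repressors did not move one way. Of 10 such genes for Polycomb or for HDAC1 and HDAC2, 3 were higher and 2 lower in Adult lungs. Of all genes, 35.0% were higher and 30.2% lower, so neither count stands out. The cell cycle inhibitor Cdkn2b was 4.14 higher and Cdkn1a 2.23 higher, whereas Cdkn1c fell by 2.76. Bmp4 was 1.09 higher and Igf1 fell by 1.98. Cdkn2a, which Polycomb is known to keep silent, was at a dim signal of 4.06 to 4.64 and was not called (0.45, adjusted p = 0.068). Neither was Trp63 (0.07), at a dim signal of 4.93 to 5.07. Sox2 was not called either (0.00), but its mean went from 8.36 at E14 to 6.35 at P10 and 8.10 in Adult lungs. Of 10 germline genes that DNA methylation keeps silent, 3 were higher and 2 lower in Adult lungs, beside the same shares of all genes. Only 1 had Max above 7. That gene, Asz1, fell by 3.28. The other calls were at dim signal, Sycp3 at 0.77, Dazl at 0.50 and Sycp1 at 0.29 higher and Slc25a31 lower (-0.52).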

How the data were processed

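RNA of pooled whole lungs had been hybridised to 14 Affymetrix whole-genome mouse arrays. The deposited log2 values were used without further scaling. The authors worked in Partek 6.4. Their methods give Robust Multichip Average (RMA) as the normalization and the submitters' processing notes give GCRMA, so which of them made the values is not known. The methods treat dim signals differently, which can change the size of a fold. The 64 control probe sets among 45101 were dropped. In the platform annotation, 34945 probe sets had 1 symbol, 932 several and 9160 none. Some listed genes are not reported here.

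One mean per time point was fitted to all 45037 probe sets with limma 3.58.1 in R 4.3.3 (residual df 7, prior df 6.04), and p was Benjamini-Hochberg adjusted over all of them. Paralog ratios were added to the same table. Promoter sequences came from RefSeq (GRCm38.p6). With 2 arrays a time point, the number of arrays limits the precision. The 10 genes, the gene lists and the comparisons were chosen with earlier results of these data known. Named genes are the 10 genes, related genes picked by role, the largest called rise and fall of each list of related genes and the 3 nearest courses. Alternatives were quantile normalization, centring, a filter on Max, ordinary ANOVA (the methods' test), an intensity trend, a replicate block, other probe sets, a natural spline in place of EDGE, and leaving out each array. The fit was tested on simulated data.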

Additional observations from a re-analysis of the deposited data

How the results depend on the processing

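The 70 differences of the 10 genes were recomputed under 22 alternative settings, 14 of them leaving out 1 array, where the lone array left is assumed to vary like the other groups. Of 1540 values 1518 kept their call, 11 lost it, 11 gained it and 0 turned a called sign. The count of genes lower in Adult lungs than at E12 was 9 or 10, the 9 coming from the dim second probe set of Eed (-0.22, adjusted p = 0.16). The count of dynamic genes was 6 with quantile normalization, 8 with the mean of or the second probe sets and 8 or 9 with 1 array left out. It was 9 with the natural spline and 10 by the adjusted p alone. The count higher at P2 than at E18 was 2 with the second probe sets and 1 to 2 with an array left out. That higher at P10 than at P2 was 0 with the mean of all probe sets and 0 to 1 with an array left out, and that lower was 0 to 1. The change of the ratio of Dnmt3b to Dnmt3a was 0.26 with the mean of probe sets and -0.28 with the second ones. That of Hdac1 to Hdac2 was 0.33 to 0.62 with an array left out. For Tet3, no ratio could be given with the filter on Max. The causes of these shifts were not tested.

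With the replicate number as a block, 9 genes were dynamic, 10 were lower in Adult lungs than at E12 and 9 lower at E18 than at E16, and no call of the 10 genes changed. Deviations of same-numbered arrays from their time-point means correlated at -0.18 to 0.08 between time points, so no array-wide shift tied to the number was seen. Such correlations cannot show whether same-numbered arrays shared a pool or a batch. Dim signals limit Tet3, Cdkn2a, Trp63, Dnmt3l and the dimmest probe sets of Tet1, Eed and Suz12, where a change could be understated.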
